A study of Mus musculus with 4 samples.

Results

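The epidermal differentiation complex is a block of genes on mouse chromosome 3 that carries most of the protein families used to build the outer skin barrier. Its promoters were described here in H3K9me2 ChIP-seq libraries of aortic medial vascular smooth muscle cells (VSMCs). H3K9me2 is dimethylation of lysine 9 of histone H3, a mark associated with silent chromatin. The members were taken by gene symbol alone, with no use of the measured values: symbols that start with Lce and a digit, with Sprr or with S100a and a digit, and the genes Lor, Ivl, Flg, Flg2, Rptn, Tchh, Tchhl1, Hrnr, Crct1 and Crnn. This gave 54 of the 26354 promoters in the deposited table. Of these, 41 belong to genes used in skin and related lining tissues, called skin-only below, and 13 to S100a genes, many of which are expressed in a wide range of tissues.

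All 4 libraries came from untreated male C57Bl/6J mice. The medial layer of the aorta was freed by hand of fat, adventitia and endothelium and was fixed without being cultured. In each of the 2 independent experiments, numbered v102 and v134, an H3K9me2 ChIP library was sequenced together with its own input library. The labels give no age and do not say how many animals went into a library. The value of a promoter is its number of reads within 1 kb on either side of the transcription start site. Over the table the ChIP libraries held 162233 and 229605 promoter reads and the inputs 619100 and 1084349, with a median of 4 and 5 ChIP reads and 20 and 37 input reads per promoter (v102 and v134 in each case). The log2 H3K9me2/input ratio used below is the log2 of the ChIP count over the input count, with 1 read added to each and each divided by the promoter total of its own library. At the median promoter of the table it was −0.31, and the top quartile began at 0.66. The promoters of 10 smooth muscle genes, a list added after the values of the complex were known, had a median ratio of −1.09. By the edgeR test described below 1 of them was above input (Smtn, smoothelin, ratio 1.45, adjusted p = 0.000169) and 3 were below, among them Myh11, the smooth muscle myosin heavy chain, with 0 and 0 ChIP reads, against 18.6% and 17.0% of all promoters. Of the 3, only Myh11 stayed below input with a block for the experiment (8.30% of all promoters), and DESeq2 gave 9 of the 10 no adjusted p. These reads do not measure expression and so do not check the identity of the cells.

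A keratinocyte that leaves the basal layer of the epidermis builds a cornified envelope, a sheet of cross-linked protein beneath its membrane. Involucrin (Ivl) and loricrin (Lor) are main building blocks of that sheet, small proline-rich proteins (Sprr) act as cross-bridges, and late cornified envelope proteins (Lce) are added late. The S100-fused type proteins, among them filaggrin (Flg) and trichohyalin (Tchh), bind and bundle keratin filaments, and S100a proteins are small calcium sensors with functions in and outside the skin. In epidermis these neighbouring genes switch on together during terminal differentiation, and TATA boxes and binding sites of the AP-1 factors are well-known elements of their promoters.

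The promoters that carry the contrasts described below are shown first, so that families can be compared by sequence as well as by reads. Sprr2b and Lce1c stand for the families with the highest ratios, Flg2, Ivl and Lor for the other skin-only genes, and S100a9 and S100a7a for the upper and lower ends of the S100a genes. Each is the 250 bases before the RefSeq start, 5′ to 3′ on the gene's own strand, in GRCm38.p6. Places and GC content rest on the GENCODE start instead, which is 85 bases from the RefSeq start at Sprr2b and 285 at S100a7a. The stretch printed for S100a7a lies wholly downstream of its GENCODE start. Capitals mark TATAAA (the core of a TATA box) and TGANTCA (the core of an AP-1 site), searched on both strands.
Sprr2b, chr3:92316455-92316704, plus strand: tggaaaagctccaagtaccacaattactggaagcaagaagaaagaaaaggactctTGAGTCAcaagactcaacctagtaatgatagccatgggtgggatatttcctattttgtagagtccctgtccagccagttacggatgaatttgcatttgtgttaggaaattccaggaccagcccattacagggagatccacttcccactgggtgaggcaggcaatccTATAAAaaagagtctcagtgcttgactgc
Lce1c, chr3:92678997-92679246, plus strand: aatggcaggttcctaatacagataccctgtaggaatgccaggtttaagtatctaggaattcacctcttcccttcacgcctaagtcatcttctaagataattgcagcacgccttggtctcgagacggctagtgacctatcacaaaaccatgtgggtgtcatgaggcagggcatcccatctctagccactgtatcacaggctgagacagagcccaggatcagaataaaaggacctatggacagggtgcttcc
Flg2, chr3:93197023-93197272, plus strand: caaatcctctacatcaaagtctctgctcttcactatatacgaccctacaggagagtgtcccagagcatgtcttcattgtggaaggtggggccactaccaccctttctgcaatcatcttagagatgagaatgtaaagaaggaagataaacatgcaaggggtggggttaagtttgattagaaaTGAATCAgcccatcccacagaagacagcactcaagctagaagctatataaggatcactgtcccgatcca
Ivl, chr3:92573736-92573985, minus strand: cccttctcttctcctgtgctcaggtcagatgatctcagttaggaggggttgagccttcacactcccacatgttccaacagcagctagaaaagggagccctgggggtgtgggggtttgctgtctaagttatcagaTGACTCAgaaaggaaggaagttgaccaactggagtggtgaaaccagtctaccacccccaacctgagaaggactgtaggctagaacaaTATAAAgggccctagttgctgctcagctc
Lor, chr3:92083143-92083392, minus strand: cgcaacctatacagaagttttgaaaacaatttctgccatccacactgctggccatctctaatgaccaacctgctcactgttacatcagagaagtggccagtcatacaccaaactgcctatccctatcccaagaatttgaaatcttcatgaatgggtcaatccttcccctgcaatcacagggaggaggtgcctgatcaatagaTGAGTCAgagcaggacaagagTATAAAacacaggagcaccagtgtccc
S100a9, chr3:90695722-90695971, minus strand: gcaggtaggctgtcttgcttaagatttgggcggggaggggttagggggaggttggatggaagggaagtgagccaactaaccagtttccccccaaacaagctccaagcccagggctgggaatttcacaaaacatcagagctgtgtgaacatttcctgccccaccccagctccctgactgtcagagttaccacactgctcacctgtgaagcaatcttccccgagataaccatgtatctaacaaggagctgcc
S100a7a, chr3:90654052-90654301, plus strand: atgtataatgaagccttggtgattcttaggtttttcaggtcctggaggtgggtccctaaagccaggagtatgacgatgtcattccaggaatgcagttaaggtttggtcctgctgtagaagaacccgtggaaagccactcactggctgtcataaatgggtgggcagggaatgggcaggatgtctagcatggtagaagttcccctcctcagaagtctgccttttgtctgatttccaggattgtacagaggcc

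RefSeq promoters matched 48 of the 54 members. Among all 15151 promoters of the table with such a sequence, 11.5% held TATAAA and 6.05% held TGANTCA in the 250 bases. Sprr promoters held TATAAA in 10 of 11 and TGANTCA in 9 of 11. In all 7 Sprr2 promoters with a sequence, TATAAA began 29 bases before the start, and each of them also held TGANTCA. Lce promoters held fewer of these letters, with TATAAA in 3 of 17 and TGANTCA in 0 of 17. The S100-fused type promoters held the motifs in 4 and 5 of 7, and S100a promoters in 2 and 1 of 11. A match is a string of letters and was not shown to be a bound site, and a missing match says only that these letters are not in this window.

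H3K9me2 was high at most skin-only promoters in both experiments. The edgeR quasi-likelihood test, adjusted over the whole table, placed 35 of the 41 (85.4%) above input, against 18.6% of all promoters, and 0 below input, against 17.0% of all promoters. At an unadjusted p under 0.05 the same test placed 37 above and 0 below, against 5646 and 6542 of all 26354 promoters. The median ratio of the skin-only promoters was 1.76, with a range from −0.18 to 2.56. In 39 of the 41 the ratio was above 0 in both experiments, against 8504 of all 26354 promoters. In the top quartile of both experiments lay 33, against 17.8% of all promoters. By the authors' deposited ratio of summed reads, 37 reached its 75th percentile of 0.343, against 25% of all promoters.

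S100a promoters had a different profile from the skin-only promoters. By the same test, 1 of the 13 was above input (7.69%, S100a9), against 18.6% of all promoters. Below it were 2 (15.4%, S100a7a and S100a10), close to the 17.0% of all promoters. The other 10 did not pass the test in either direction. Their median ratio was −0.52, close to the −0.31 of all promoters, and they ranged from −2.95 to 1.17. The lower end, S100a7a, had no ChIP read, so its value rests on the read added to each count. The ranges of the classes overlapped: 8 skin-only promoters lay under S100a9, and 5 S100a promoters lay over Hrnr, the lowest skin-only promoter.

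A fit that matched every ChIP to its own input, by a block for the experiment, had 33 skin-only promoters above input, against 15.8% of all promoters, and 0 were below. The same fit placed 0 S100a promoters above and 1, S100a7a, below, against 8.30% of all promoters. DESeq2 placed 31 skin-only promoters above input, against 11.5% of all promoters, and no member below, against 0.110% of all promoters. It gave no adjusted p for 2 skin-only and 10 S100a promoters, whose read numbers fell under its own filter.

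**Figure D1:**
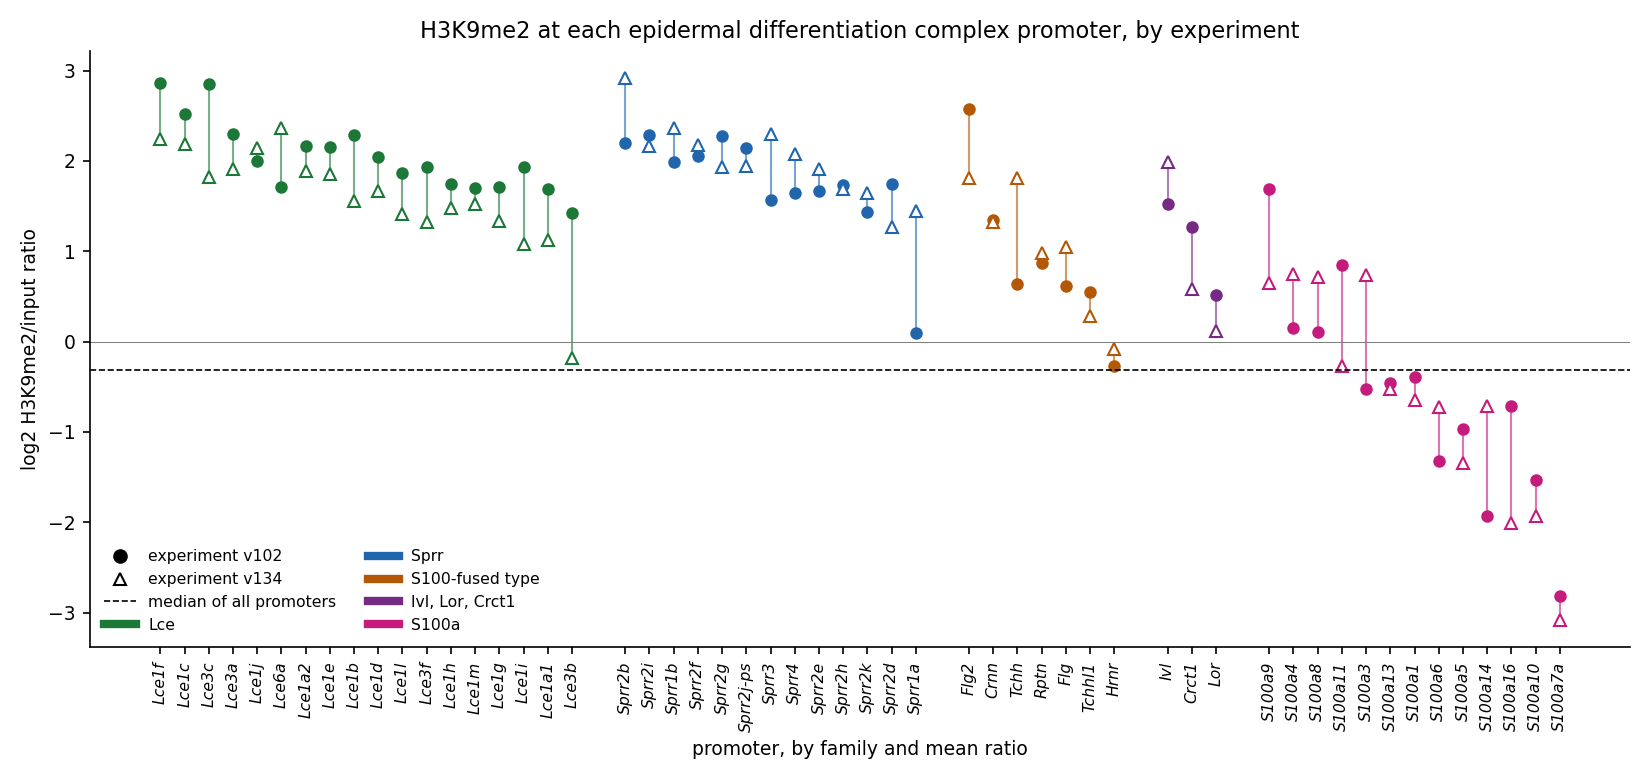
The log2 H3K9me2/input ratio (vertical axis) is drawn for each of the 54 promoters (horizontal axis, grouped by family and ordered by the mean), with a filled circle for experiment v102, an open triangle for experiment v134, and a dashed line at the median of all promoters, −0.31. Nearly all Lce and Sprr promoters lie above 1 in both experiments, whereas S100a promoters run from 1.17 at S100a9 down to −2.95 at S100a7a by the mean.

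Among the 18 Lce promoters, 17 were above input and the remaining one, Lce3b, did not pass the test. The Lce1 subgroup passed in 13 of 13 and the Lce3 subgroup in 3 of 4. Lce1f had 20 and 25 ChIP reads in experiments v102 and v134 against 10 and 25 input reads, a mean ratio of 2.55 ± 0.44 (SD, n = 2 experiments) and an adjusted p of 6.97e-09. Although the v134 ChIP library held fewer promoter reads than its input, both counts were 25 at this promoter. The reads at Lce1c were 29 and 28 in ChIP and 19 and 29 in input, a ratio of 2.35 ± 0.23 with an adjusted p of 1.50e-09.

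In the Lce3 subgroup, whose human counterparts respond to barrier damage, the spread was wider. Lce3c had 35 and 35 ChIP reads against 18 and 47 input reads (ratio 2.34 ± 0.73, adjusted p = 3.28e-10). At Lce3a 39 and 38 ChIP reads stood against 30 and 48 input reads, with a ratio of 2.11 ± 0.28 and an adjusted p of 1.90e-09. Lce3b was the lowest of the family, with 6 and 5 ChIP reads against 9 and 31 input reads. Its ratio was 1.42 in experiment v102 and −0.18 in experiment v134, which was the widest gap between the experiments among the 54 members, and its adjusted p was 0.587. Lce1a1, next to lowest, had 21 and 22 ChIP reads against 25 and 49 input reads and still passed the test (ratio 1.41 ± 0.40, adjusted p = 0.000614). The other 12 Lce promoters had ratios from 1.51 at Lce1i to 2.07 at Lce1j, and their adjusted p-values ran from 6.16e-08 at Lce6a to 0.00381 at Lce1g. Of the 18 Lce promoters, 16 had the higher ratio in experiment v102, as did 15855 of all 26354 promoters. The windows of Lce3f and Lce3c shared 13.6% and 6.23% of their words of 75 bases with other places on chromosome 3, where reads of that length cannot be placed uniquely, and the other 16 windows shared under 5%.

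All 13 Sprr promoters were above input, and 12 of them also with the block. Sprr2b had 11 and 31 ChIP reads against 9 and 19 input reads, so ChIP reads outnumbered input reads in both experiments despite the smaller ChIP libraries. Its ratio of 2.56 ± 0.51 lay higher than at 99.3% of all promoters, with an adjusted p of 3.52e-09, and the deposited ratio there was 1.5 (95% Wilson interval 0.934 to 2.41, counting error only). Sprr2i followed with 26 and 41 ChIP reads against 20 and 43 input reads (2.23 ± 0.09, adjusted p = 1.44e-09). The experiments were close to each other at Sprr2i and, to a similar degree, at Sprr2f.

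Sprr1b, a marker of squamous differentiation, had 25 and 36 ChIP reads against 24 and 33 input reads, a ratio of 2.18 ± 0.26 and an adjusted p of 6.33e-09. Sprr2f had 22 and 44 ChIP reads against 20 and 46 input reads (2.12 ± 0.08, adjusted p = 5.95e-09). At the lower end, Sprr2d had 13 and 20 ChIP reads against 15 and 40 input reads (1.51 ± 0.33, adjusted p = 0.00141). Sprr1a stood apart from its family, with 6 and 21 ChIP reads against 24 and 37 input reads. Its ratio was 0.10 in v102 and 1.45 in v134, and its adjusted p of 0.0403 became 0.0962 with the experiment as a block. The remaining 7 Sprr promoters had ratios from 1.54 at Sprr2k to 2.11 at Sprr2g, with adjusted p-values of 0.000153 or less. Sprr2g, annotated as a polymorphic pseudogene, and Sprr2j-ps, a pseudogene by its symbol but annotated as protein-coding, had ratios of 2.11 and 2.04. Both lay inside the range of the other Sprr2 promoters from 1.51 to 2.56.

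Of the 7 S100-fused type promoters, 4 were above input by edgeR (57.1%, against 18.6% of all promoters) and 3 did not pass, and the median ratio was 0.92. The number above was 3 with the block (15.8% of all promoters) and 1, Flg2, by DESeq2 (11.5% of all promoters), in which Crnn had an adjusted p of 0.0563 and Tchh of 0.0837. Flg2, which encodes a filaggrin-like protein, had 32 and 31 ChIP reads against 20 and 42 input reads, a ratio of 2.2 ± 0.55 and an adjusted p of 4.74e-09. Crnn, cornulin, had 17 and 17 ChIP reads against 26 and 33 input reads (1.33 ± 0.02, adjusted p = 0.00251). The 2 experiments gave almost the same ratio at Crnn.

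Tchh, the trichohyalin gene of the hair root sheath, had 8 and 22 ChIP reads against 21 and 30 input reads (1.23 ± 0.82, adjusted p = 0.00361). Rptn, repetin, had 10 and 19 ChIP reads against 22 and 47 input reads (0.92 ± 0.08), and its adjusted p of 0.0415 became 0.0613 with the block. Flg itself, the filaggrin gene, missed the threshold with a ratio of 0.83 ± 0.31 and an adjusted p of 0.10. Tchhl1 had 9 and 9 ChIP reads against 25 and 38 input reads (0.41 ± 0.20, adjusted p = 0.460). Hrnr, hornerin, had 4 and 7 ChIP reads against 22 and 39 input reads, a ratio of −0.18 ± 0.13 and an adjusted p of 0.783. In this family a promoter above input and one near the median of all promoters start 122 kb apart, with only Flg among the members between Flg2 and Hrnr.

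The 3 single genes spanned much of the skin-only range. Ivl had 11 and 26 ChIP reads against 15 and 31 input reads, a ratio of 1.76 ± 0.34 and an adjusted p of 3.71e-05. Crct1 had 11 and 12 ChIP reads against 18 and 40 input reads (0.93 ± 0.49, adjusted p = 0.0831). Lor had 8 and 8 ChIP reads against 23 and 38 input reads (0.32 ± 0.28, adjusted p = 0.612). The difference between Ivl and Lor was not tested, and both promoters printed above hold TATAAA and TGANTCA.

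Among the 7 widely expressed S100a promoters, a group named from general knowledge, 0 were above input by edgeR, against 18.6% of all promoters. The number was also 0 at an unadjusted p under 0.05 (5646 of all 26354 promoters) and with the block (15.8% of all promoters). DESeq2 had 0 above as well (11.5% of all promoters), but it gave 6 of the 7 no adjusted p. A group of 7 promoters is small to set against these shares. S100a10, the annexin A2 partner, had 1 and 1 ChIP reads against 21 and 35 input reads, a deposited ratio of 0.0357 (95% Wilson interval 0.00960 to 0.133) and an adjusted p of 0.0201, which became 0.0575 with the block. S100a16 and S100a6 also had few ChIP reads, 3 and 1 at S100a16 against 24 and 37 input reads and 1 and 4 at S100a6 against 18 and 38. Neither passed the test, with an adjusted p of 0.0616 at S100a16 and 0.163 at S100a6, the calcyclin gene.

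S100a4, a marker of fibroblasts and migrating cells, lay higher, with 6 and 20 ChIP reads against 23 and 58 input reads (0.45 ± 0.42, adjusted p = 0.218). S100a11 had 8 and 6 ChIP reads against 18 and 39 input reads, and its ratio was 0.85 in experiment v102 and −0.27 in experiment v134 (adjusted p = 0.715). S100a1 and S100a13 start 43 bases apart on opposite strands, so their windows share most of their reads. They had 3 and 4 ChIP reads each, against 19 and 36 input reads at S100a1 and 20 and 33 at S100a13, with adjusted p-values of 0.389 and 0.427. These are not separate measurements.

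The 6 tissue-restricted S100a promoters, again grouped from general knowledge, held both ends of the S100a range. S100a9, a calprotectin subunit of neutrophils that keratinocytes make under stress, had 10 and 14 ChIP reads against 12 and 44 input reads. Its ratio was 1.69 in v102 and 0.65 in v134, and its adjusted p of 0.0457 became 0.0759 with the block. S100a8, which encodes the other calprotectin subunit, had 10 and 15 ChIP reads against 38 and 45 input reads (0.41 ± 0.43, adjusted p = 0.357).

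S100a7a, the mouse psoriasin-related gene, had 0 and 0 ChIP reads against 26 and 39 input reads (adjusted p = 0.000218 and 0.00594 with the block). With the floor of 3 reads over both ChIP libraries, its scaled ratio was at least 4.98-fold lower than that of the summed libraries. S100a14 had 1 and 3 ChIP reads against 28 and 30 input reads (adjusted p = 0.0715), and S100a5 had 3 and 1 against 29 and 23 (adjusted p = 0.113). S100a3 had 3 and 11 ChIP reads against 21 and 33 input reads (0.10 ± 0.89, adjusted p = 0.672). Its start in the annotation used here lies 24081 bases from the nearest RefSeq start, so the place and GC content given for S100a3 are uncertain, while its reads are those of the deposited table.

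The classes were then compared as sums of reads within each experiment. In experiment v102 the skin-only promoters held 725 ChIP and 804 input reads and the S100a promoters 52 and 297. The ChIP/input ratio of the skin-only promoters was 5.15 times that of the S100a promoters (95% counting interval 3.77 to 7.03). In experiment v134, with 1001 and 1506 reads against 84 and 490, it was 3.88 times (3.04 to 4.95). The direction was the same in both experiments, and with 2 experiments an exact sign-flip test cannot give a p under 0.5, so no p is given. Against the widely expressed S100a promoters alone the summed ratio was 4.82 (3.68 to 6.30), and against the tissue-restricted ones it was 3.87 (2.98 to 5.03). The tissue-restricted S100a promoters held 1.24 times the ratio of the widely expressed ones, and the interval of 0.864 to 1.79 included 1. In summed reads no difference between these S100a groups was therefore detectable at this depth.

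Between skin-only families, the S100-fused type promoters held 0.540 times the ratio of the Lce and Sprr promoters together in experiment v102 (0.407 to 0.716) and 0.617 times in experiment v134 (0.487 to 0.780). Lce and Sprr had no fixed order. The Lce to Sprr ratio was 1.23 (0.980 to 1.55) in experiment v102 and 0.797 (0.666 to 0.954) in experiment v134. The median ratios of Lce and Sprr were 1.89 and 1.94. The motifs were more frequent in Sprr than in Lce promoters, without a test, and did not sort the families, since Sprr4 held neither motif, Sprr3 held no TGANTCA, and Lce6a, Lce1d and Lce1m held TATAAA.

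**Figure D2:**
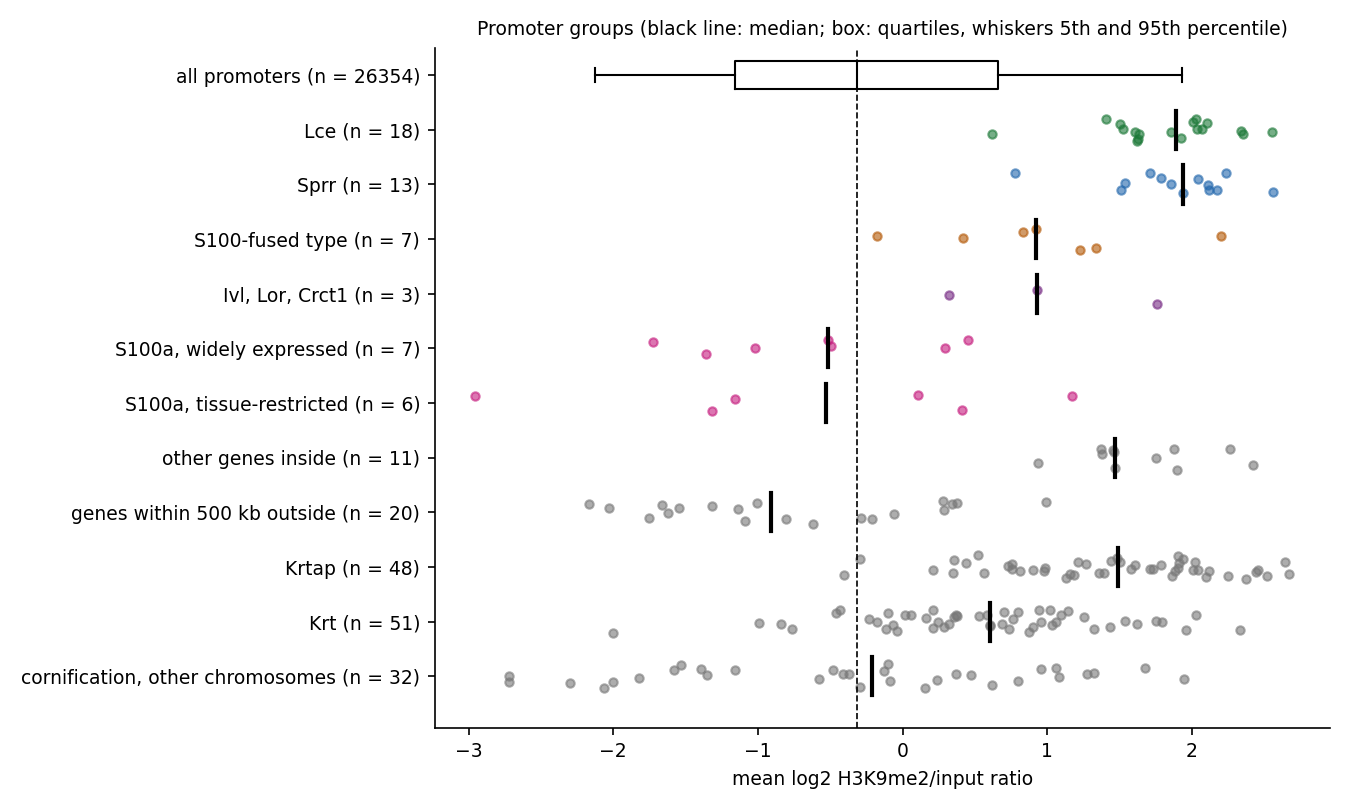
The mean log2 H3K9me2/input ratio (horizontal axis) is drawn for each promoter as a point, by group (vertical axis), with a black line at each group's median; all 26354 promoters are a box of the quartiles with whiskers at the 5th and 95th percentile, and the dashed line is their median. The Lce, Sprr, Krtap and inner neighbour groups lie mostly to the right of that box, and both S100a groups straddle the median.

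The place of each promoter in the complex went with its class. From S100a1 (start at position 90514392 of chromosome 3, GRCm38) to S100a10 (start at 93555080) the members span 3041 kb. The 41 skin-only starts occupy 1386 kb from Lor to Tchhl1 without an S100a gene among them, with 11 S100a genes on the S100a1 side and 2, S100a11 and S100a10, beyond Tchhl1. Gene class and place therefore cannot be told apart from the members alone.

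The other genes within the complex start between S100a9 and Tchhl1, and not among the S100a genes. Most start between Lor and Tchhl1, while Pglyrp4, 9130204L05Rik and Pglyrp3 start between S100a9 and Lor. They therefore give no values at the places of the S100a genes. Of 11 further promoters of the table between the outermost members, 10 were above input by edgeR, against 18.6% of all promoters. With the block 10 were above (15.8% of all promoters). DESeq2 placed 8 above (11.5% of all promoters) and gave 1 no adjusted p. The median ratio of the 11 was 1.47. The 11 include Pglyrp3 and Pglyrp4, which encode peptidoglycan-recognition proteins, Prr9, Kprp and Lelp1, and also Smcp, a gene of sperm mitochondria. Smcp had 20 and 17 ChIP reads against 15 and 56 input reads (ratios 2.32 and 0.58, adjusted p = 0.00243). Summed, skin-only promoters held 1.03 times the ratio of these inner neighbours (0.899 to 1.17), an interval that includes 1.

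The values at the S100a genes nearest to the skin block on either side are given next, and their differences were not tested. On the Lor side, S100a9 starts 1387 kb from Lor, so it does not adjoin the block. Pglyrp4, 31 kb from S100a9, had a ratio of 1.38 ± 0.20 (adjusted p = 0.00121), close to the 1.17 ± 0.73 of S100a9. At the other end, S100a11 starts 52 kb beyond Tchhl1 and the ratios were 0.29 ± 0.80 and 0.41 ± 0.20. The ratio at S100a10, 86 kb beyond Tchhl1, was −1.73 ± 0.28. Outside the members, 20 promoters had a start within 500 kb, all of them on the S100a1 side. Their median ratio was −0.91. By edgeR 1 was above (5.00%, against 18.6% of all promoters) and 6 were below input (30.0%, against 17.0%), which became 3 below with the block (8.30% of all promoters) and 0 by DESeq2, which gave 14 of the 20 no adjusted p. At an unadjusted p under 0.05 edgeR had 8 below, against 6542 of all 26354 promoters. The summed ratio of the S100a promoters was 1.16 times that of these flanking promoters (0.917 to 1.47). The choice of 500 kb was made after the values were known.

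**Figure D3:**
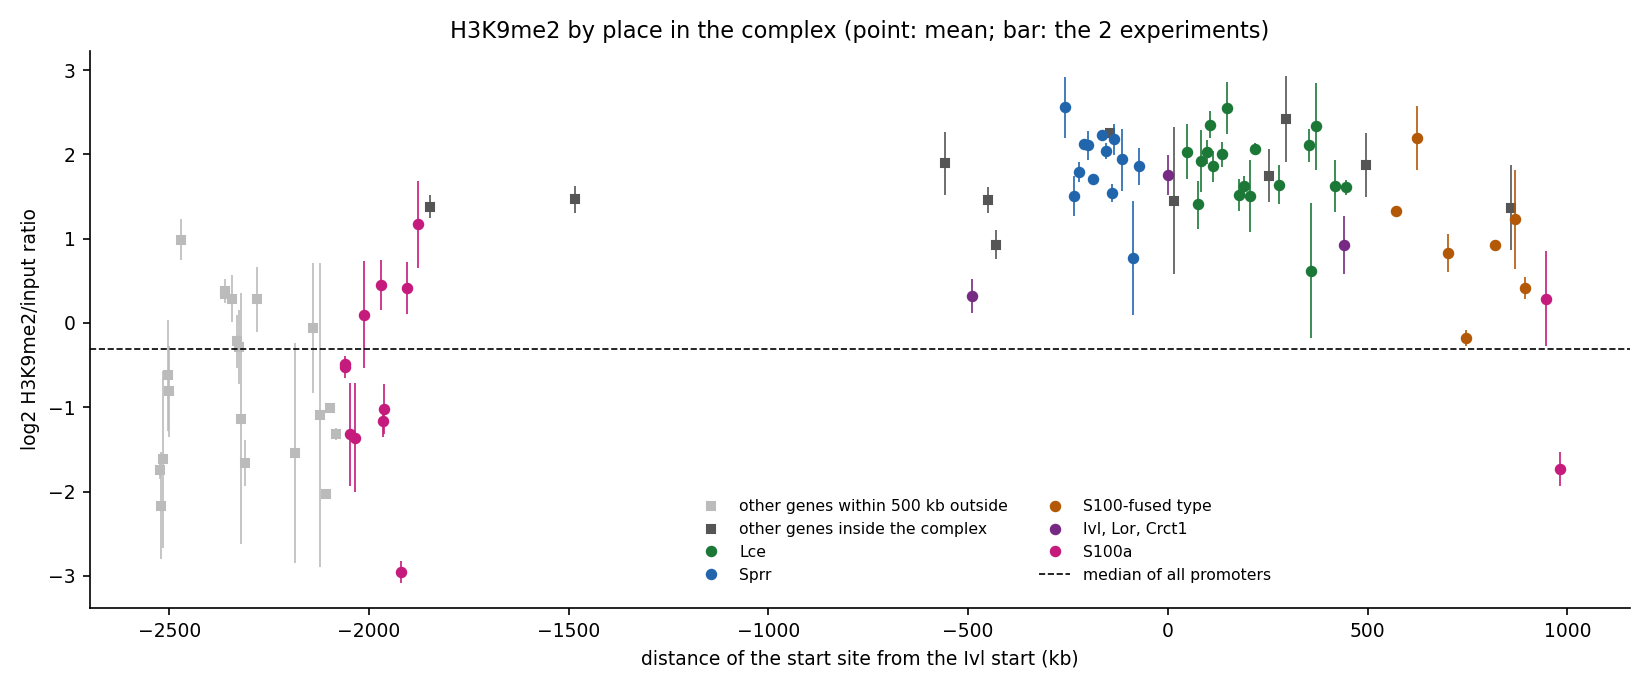
The log2 H3K9me2/input ratio (vertical axis) is drawn against the distance of each start site from the Ivl start in kb (horizontal axis), with the mean of the experiments as a point and a bar between the 2 experiments; colours mark families, dark squares other genes inside and light squares genes within 500 kb outside. The promoters from Lor to Tchhl1 and their dark neighbours sit mostly above 1, while those at the S100a ends and in the flank scatter around the dashed median of −0.31.

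Base composition moved with the classes as well. The skin-only windows had a median GC content of 41.1% and a median of 8 CG dinucleotides per 2 kb, the S100a windows 50.6% and 21, and all promoters 50.9% and 56. Of the S100a windows, 10 had a higher GC content than any skin-only window, and 34 skin-only windows had a lower one than any S100a window. Over the table the ratio falls with GC content. After the GC trend over all promoters was removed, the median percentile of the skin-only promoters was 88.4 instead of 93.0, and 27 instead of 37 lay in the top quartile. For Lce and Sprr it was 90.7 and 89.4, for the S100-fused type it was 48.0 instead of 80.2, and for S100a it was 39.8 instead of 44.0. The S100a groups moved apart, to 58.9 instead of 44.0 for the widely expressed and 33.4 instead of 43.3 for the tissue-restricted promoters. That difference was not tested. Flg was at percentile 78.4 before and 33.2 after the removal, and Hrnr at 54.0 and 17.4.

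At a GC content of 43 to 50%, a range chosen after the values were known because it holds members of both classes, there were 12 skin-only and 6 S100a promoters. The skin-only to S100a ratio of summed reads was 4.0 (2.63 to 6.07) in experiment v102 and 2.59 (1.82 to 3.67) in experiment v134. Between the ratio and GC content, Spearman's rho was −0.51 over the 54 members (Pearson's r −0.69), −0.48 over the 13 S100a promoters (−0.43) and −0.01 over the 41 skin-only promoters (−0.02), as a description over promoters that share the same 4 libraries. The part of base composition in the class difference was not tested beyond these values.

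**Figure D4:**
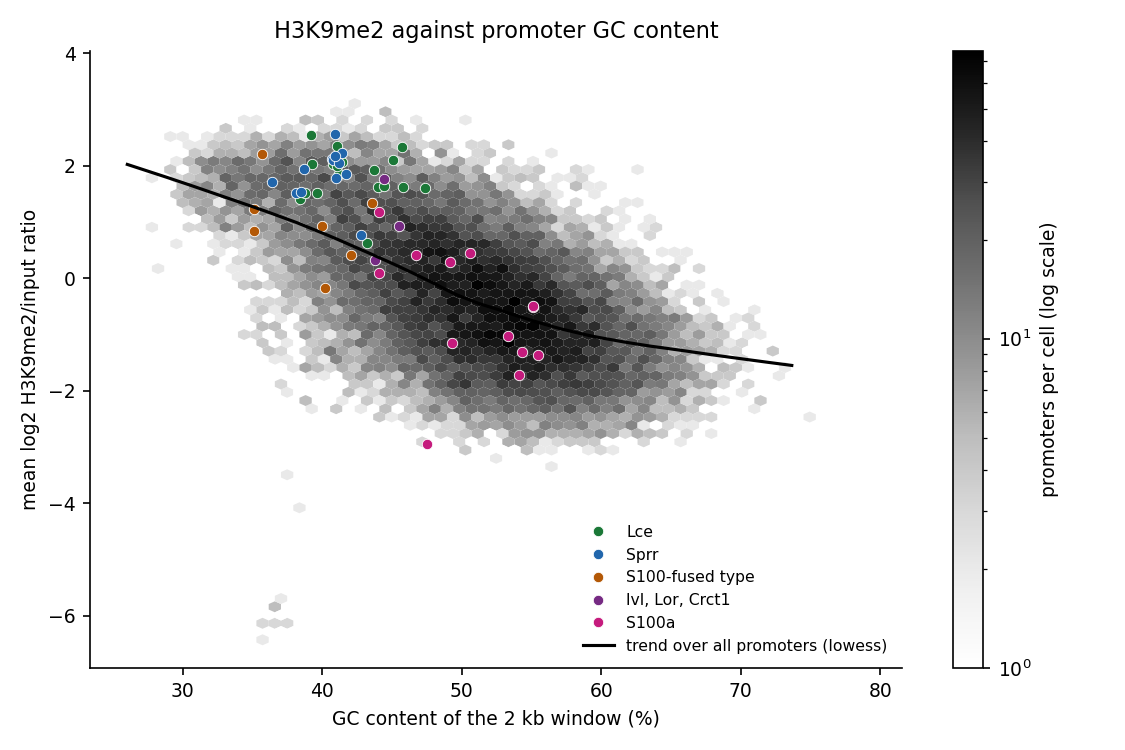
The mean log2 H3K9me2/input ratio (vertical axis) is drawn against the GC content of the 2 kb window in percent (horizontal axis), with all promoters as a grey density on a log scale, members as coloured points and the trend over all promoters as a line. Lce and Sprr points lie above the line, whereas S100-fused type and S100a points fall on both sides of it.

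The skin-only promoters were set beside other skin genes of the genome. Keratin-associated protein (Krtap) genes, which also lie in blocks and serve the hair shaft, had a median ratio of 1.49. By edgeR 31 of 48 promoters were above input (64.6%, against 18.6% of all promoters) and 0 below, against 17.0%. The number below was also 0 at an unadjusted p under 0.05 (6542 of all 26354 promoters) and by DESeq2 (0.110% of all promoters). The skin-only to Krtap ratio of summed reads was 1.02 (0.886 to 1.19) in experiment v102 and 1.15 (1.02 to 1.29) in experiment v134. Keratin filament (Krt) promoters were above input in 14 of 51 (27.5%, against 18.6% of all promoters) and below in 1, against 17.0% of all promoters, with a median of 0.60. The number above was 11 with the block and 7 by DESeq2, against 15.8% and 11.5% of all promoters. The skin-only promoters held 2.07 times their summed ratio (1.88 to 2.28). The Krt windows had a median GC content of 50.6%, against 41.1% for skin-only windows. With the GC trend removed, the median percentile of the Krt promoters was 80.1 instead of 73.7. For Krtap it was 86.5 instead of 89.4, and for skin-only promoters 88.4 instead of 93.0. The part of base composition in these differences was not tested.

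Genes of cornification outside the complex differed from those inside. Of 32 such promoters, 6 were above input (18.8%, against 18.6% of all promoters) and 7 below (21.9%, against 17.0%), with a median of −0.21, and the skin-only promoters held 3.30 times their summed ratio (2.91 to 3.74). With the GC trend removed, the median percentile of the 32 was 51.3 instead of 52.9. With the block 5 were above and 5 below, against 15.8% and 8.30% of all promoters. DESeq2 placed 2 above and 0 below, against 11.5% and 0.110% of all promoters, with no adjusted p for 22. The 6 above input by edgeR included Casp14, the caspase of cornification, with 23 and 17 ChIP reads against 16 and 30 input reads (1.94 ± 0.69, adjusted p = 5.56e-06). They also included Sbsn, suprabasin, with 12 and 15 against 15 and 22 (1.67 ± 0.06, adjusted p = 0.000984). The 7 below input included Tgm1, the transglutaminase that cross-links the envelope, with 1 and 0 ChIP reads against 20 and 29 input reads (adjusted p = 0.0124). They also included Krt1, the suprabasal keratin, with 0 and 1 against 15 and 35 (adjusted p = 0.0120). Of the S100 genes outside the complex, S100z was below input with 1 and 2 ChIP reads against 26 and 40 input reads (adjusted p = 0.0189, which became 0.0513 with the block), and S100b and S100g did not pass the test. These lists also hold genes shared with the Krt group, such as Krt1.

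At this depth single promoters carry wide errors. Across the 54 members the ratios of the 2 experiments had a Pearson r of 0.87 and a Spearman rho of 0.79, over the skin-only promoters 0.64 and 0.60, as descriptions over promoters of the same libraries. The gap between the experiments had a median of 0.42 on the log2 scale over the members and was over 1 at Lce3b, Sprr1a, S100a16, S100a3, S100a14, Tchh, S100a11, S100a9 and Lce3c. The annotation release behind the deposited windows is not given in the sources used here, and places and GC content rest on matching symbols to GENCODE.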

How the data were processed

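H3K9me2 ChIP and input libraries from 2 experiments were analysed. According to the paper's methods and the submitters' processing notes, the authors trimmed paired-end reads (Trim Galore 0.4.2, cutadapt 1.9.1), aligned them to GRCm38 with Bowtie2 2.2.7, counted reads within 1 kb of transcription start sites with SeqMonk and dropped genes with few input reads. The authors deposited raw counts per library, their sums per library type and the ratio of the sums, with no scaling for library size. Duplicate handling is not given in the sources used here.

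ChIP and input counts were compared over all 26354 promoters with edgeR 4.0.16 (R 4.3.3), quasi-likelihood test, TMM, Benjamini-Hochberg adjustment at 0.05. DESeq2 1.42.0 was an alternative. The test was tested on simulated counts. The experiments are independent per the labels, and p-values rest on 2 libraries against 2. The fit behind the printed adjusted p-values is unpaired. Each ChIP has its own input per the labels, and this pairing enters only the alternative fit with the experiment as a block, whose values are named as such. The experiment differences of ChIP and input had a correlation of 0.104 over promoters. Counting noise alone did not account for the differences between replicates, whose chi-square was 1.52 (ChIP) and 1.28 (input) times its degrees of freedom.

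Positions and GC content come from GENCODE M21, in which 84.7% of symbols and all 54 members matched 1 gene, and promoter sequences from RefSeq (GRCm38.p6). The GC trend was a lowess fit (fraction 0.3, statsmodels 0.14.6). Wilson and counting intervals (95%) cover counting error alone, as PCR copies of a molecule could not be told apart. Alternatives were a minimum of 20 reads in each input, library totals, DESeq2, the block, other pseudocounts, single experiments, removal of mitochondrial windows and of overlapping windows, and smaller member sets.

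Members, gene lists and groups were chosen with earlier results of these data known. Values in every library are given for all S100a promoters and for the 4 highest and 2 lowest ratios in each other family. Other genes were named after their values were seen.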

Additional observations from a re-analysis of the deposited data

How the results depend on the processing

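Among single promoters, the fit without mitochondrial windows gave the same call at all 54 members, the fit with the experiment block at 50, library totals without TMM at 49, and DESeq2 at 37 of the 42 with an adjusted p. A minimum of 20 reads in each input kept 23 skin-only and 9 S100a promoters, with 20 of the former above input and 22 in the top quartile. In that edgeR fit Flg passed as above input (log2 fold change 1.28, adjusted p = 0.0161), and S100a10 no longer passed (adjusted p = 0.0611). Hrnr, not called in either fit, then had a log2 fold change of 0.14 instead of −0.21.

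The number of S100a promoters above input went from 1 to 0 with that minimum, library totals, DESeq2 or the block. The number below input went from 2 to 1 with that minimum or the block, to 4 with library totals and to 0 with DESeq2, which gave no adjusted p for 10 of the 13.

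The median log2 ratio of the skin-only promoters was 1.82 with a pseudocount of 5, 1.64 with the minimum, 1.59 without mitochondrial windows and 0.82 with the GC trend removed, and 1.69 to 1.74 in single experiments. For S100a promoters it was 0.20 with a pseudocount of 5, −0.66 with 0.5, −1.16 with the minimum, −0.68 without mitochondrial windows, −0.62 with the GC trend removed and −1.02 without the overlapping windows, and −0.65 to −0.53 in single experiments. The median of all promoters moved with these settings, from −0.31 to 0.34, −0.45, −0.56, −0.48 and −0.35 for the pseudocounts of 5 and 0.5, the minimum, the mitochondrial windows and the GC trend. Counts of S100a promoters in the top quartile were 2 with the minimum or the GC trend removed and 2 to 4 in single experiments, against 1.

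The pooled skin-only to S100a ratio of 4.32 became 5.34 without the 2 members with most ChIP reads in each class, and 3.07 at a GC content of 43 to 50%, an alternative chosen after seeing the data. In single experiments it was 3.88 to 5.15. The causes of these changes were not tested. A median of 4 and 5 ChIP reads limits what can be said of any 1 promoter.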
